A study of Mus musculus with 8 samples.

Results

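The ABCA genes encode large membrane proteins that use ATP to move lipids across or out of membranes. The 10 genes described here are Abca1, Abca2, Abca3, Abca4, Abca5, Abca7, Abca8a, Abca8b, Abca9 and Abca13, out of 16 ABCA genes and 25239 genes in the deposited table of counts. They were taken by symbol from a list that was chosen by the counts of these libraries and the difference between knockout and control, so the differences of the 10 genes are a description. Calls by the fit across all genes are counted for them beside the share of all genes called, and no p-value is given and nothing is read from those calls. The remaining family genes, Abca6, Abca12, Abca14, Abca15, Abca16 and Abca17, had at most 33 counts in any library.

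Kidney RNA was sequenced from 8 mouse libraries, 4 of a myeloid-specific FoxO1 knockout and 4 controls labelled WT, all after ischemia-reperfusion (I/R). The knockout mice carried floxed FoxO1 and Lyz2-CreERT2, a Cre recombinase made in myeloid cells that works only after tamoxifen. Mice of 8 to 10 weeks received tamoxifen, 75 mg per kg of body weight, for 5 days. Pentobarbital was given at 60 mg per kg. The right kidney was taken out and the left renal vessels were clamped for 35 minutes. Kidney tissue was treated with collagenase before RNA extraction. The same protocol text stands with all 8 libraries. The labels do not say whether controls carried Cre or received tamoxifen, nor how long after reperfusion kidneys were collected. No uninjured kidney was analysed here. No label ties the libraries to separate animals, so errors and p-values below measure the spread between libraries, which may be partly technical.

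Library totals ran from 29044405 to 35530421 counts. Markers of kidney tissue were present throughout: the 7 proximal tubule markers summed to 4594 to 6516 CPM (counts scaled to a common library size) in knockout and 1928 to 5669 CPM in control libraries. Foxo1 itself stood at 41.4, 41.00, 42.9 and 39.3 CPM in knockouts 1 to 4, against 34.5, 33.4, 33.00 and 33.9 CPM in controls 1 to 4, and the groups did not overlap. Other kidney cells also express Foxo1, so this level does not check its loss from myeloid cells. Lyz2, the myeloid gene whose promoter drives the Cre, set 2 libraries apart: it had 1302, 909, 13 and 858 counts in knockouts 1 to 4, against 81, 1610, 1144 and 844 counts in controls 1 to 4. Knockout 3 and control 1 were thus far below the other 6 libraries, 1 in each group. All 9 macrophage markers, Lyz2 included, summed to 212 CPM in knockout 3, below the 260 to 359 CPM of the other knockouts. In control 1 they summed to 267 CPM, inside the range of 182 to 321 CPM of the controls. The differences of the ABCA genes, and of some other genes, are therefore also given without knockout 3 and control 1. The shifts of the marker lists below are given with all libraries only. In bulk tissue, fewer cells of a type and less RNA per cell cannot be told apart. Between the groups several marker lists moved: 5 of 5 neutrophil markers, 5 of 6 injured tubule markers and 7 of 7 immediate early genes fell, while 3 of 5 loop of Henle markers, 7 of 8 distal nephron and collecting duct markers and 4 of 5 podocyte markers rose (edgeR adjusted p under 0.05 over 15000 genes). Of 7 endothelial markers 2 rose, and of 7 proximal tubule markers 2. Of 5 smooth muscle and 4 adipocyte markers 0 passed (0 of each at an unadjusted edgeR p under 0.05 and by DESeq2). By the same test 6.45% of all 15000 genes were higher and 6.28% lower. At an unadjusted edgeR p under 0.05 stood 4368 genes, and DESeq2 called 20.7%, so lists this short can hold 0 without being unlike other genes. Airway and alveolar markers summed to 1.52 to 2.22 CPM in knockout and 3.07 to 7.39 CPM in control libraries, with Scgb1a1 and Scgb3a2 at 0. Nearly all of this was Foxj1, with 1.52 to 2.16 CPM in knockout and 3.00 to 7.06 CPM in control libraries. The sums thus describe Foxj1 and not the list. Foxj1, the 1 of these 5 that could be tested, fell (-1.39 on the log2 scale, edgeR adjusted p = 0.0151). The part of these cell types in the differences below was not tested.

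ABCA proteins work by binding ATP at a pair of nucleotide-binding domains and shifting phospholipids, sterols or retinoids between membrane leaflets or to an acceptor outside the cell. Abca1, the founding member, loads cholesterol and phospholipid onto apolipoprotein A-I, the first step of HDL formation, and its transcription is driven by the oxysterol receptors LXR in partnership with RXR. Macrophages use this export to shed the sterol of cells they engulf. Other members act inside the cell: Abca2 and Abca5 in the endolysosomal system, Abca3 in the lamellar bodies of lung epithelium, and Abca4 in the photoreceptor outer segment.

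The promoters are shown first because 2 regulators named by the design and the biology, FoxO1 and LXR, are known to bind short DNA motifs. For each gene the 250 bases before the RefSeq transcription start were searched on both strands for the FoxO binding element (GTAAACA), an insulin response element (CAAAACA), the LXR element DR4 (GGTNA, any 5 bases, then GGTCA), and the sterol response element (TCACNCCAC). These motifs were chosen with the promoter of Abca1 known, so its match is no finding. RefSeq entries on GRCm38.p6 existed for 15 of the 16 family genes and for all 10 described here. The sequences below belong to Abca1, Abca3 and Abca8a, the 3 of the 10 with a match, and to Abca13, the gene with the largest difference between the groups. Capitals mark a match, and the Abca13 stretch holds none. They are given 5′ to 3′ on the strand of the gene: chr4:53159896-53160145 (minus strand) for Abca1, chr17:24351773-24352022 (plus) for Abca3, chr11:110095938-110096187 (minus) for Abca8a and chr11:9191692-9191941 (plus) for Abca13, all GRCm38.p6, whereas the submitters' processing notes name mm39 for the counts.

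Abca1: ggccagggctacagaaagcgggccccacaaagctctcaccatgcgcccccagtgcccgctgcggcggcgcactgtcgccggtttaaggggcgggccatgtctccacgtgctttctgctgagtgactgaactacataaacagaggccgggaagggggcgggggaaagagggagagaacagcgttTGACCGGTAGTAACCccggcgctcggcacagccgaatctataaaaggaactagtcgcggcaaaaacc
Abca3: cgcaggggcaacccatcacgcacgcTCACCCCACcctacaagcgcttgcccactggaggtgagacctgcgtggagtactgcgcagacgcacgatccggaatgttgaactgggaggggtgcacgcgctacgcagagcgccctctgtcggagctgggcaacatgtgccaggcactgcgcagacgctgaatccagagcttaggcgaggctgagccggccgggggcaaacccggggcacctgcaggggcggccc
Abca8a: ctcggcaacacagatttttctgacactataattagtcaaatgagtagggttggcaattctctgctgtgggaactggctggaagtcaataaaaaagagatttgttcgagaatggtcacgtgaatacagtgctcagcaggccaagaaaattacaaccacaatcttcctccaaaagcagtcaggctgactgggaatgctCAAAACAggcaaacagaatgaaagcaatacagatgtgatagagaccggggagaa
Abca13: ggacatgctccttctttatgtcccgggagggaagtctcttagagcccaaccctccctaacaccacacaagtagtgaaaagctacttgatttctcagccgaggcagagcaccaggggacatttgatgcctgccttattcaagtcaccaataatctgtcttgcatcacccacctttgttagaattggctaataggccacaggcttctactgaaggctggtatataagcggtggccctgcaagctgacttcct

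Abca1 held the DR4 element 67 to 53 bases before its start, on the opposite strand. Of 32851 RefSeq promoters 0.177% held that form. Abca3 held a sterol response element, which 1.05% of promoters did, and Abca8a held the insulin response element, which 5.56% did. The FoxO binding element was in none of the 10 windows, against 3.17% of all promoters. These matches describe letters only; no binding was measured.

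Abca8b, Abca8a, Abca9, Abca6 and Abca5 lie next to each other on chromosome 11, in that order in RefSeq. Abca8a and Abca8b resemble each other, which matters for counting reads. Between the coding sequences of Abca8a and Abca8b the longest identical run was 97 bases, at coding bases 1967 to 2063 of Abca8a and 1970 to 2066 of Abca8b. It is shown in capitals with 20 bases on either side, from the GENCODE M21 transcripts, because a short read inside it cannot be told from the other gene.

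Abca8a run: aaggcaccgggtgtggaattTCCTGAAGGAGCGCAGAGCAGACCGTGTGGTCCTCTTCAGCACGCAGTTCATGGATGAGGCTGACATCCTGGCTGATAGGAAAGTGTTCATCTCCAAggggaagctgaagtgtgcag
Abca8b run: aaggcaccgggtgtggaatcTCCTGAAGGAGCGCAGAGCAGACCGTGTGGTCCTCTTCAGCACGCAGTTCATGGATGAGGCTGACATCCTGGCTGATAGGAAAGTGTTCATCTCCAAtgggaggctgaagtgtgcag

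Over the transcripts of each gene, 1.81% of the 50-base windows of Abca8a also occurred in Abca8b, and 1.42% of those of Abca8b in Abca8a. Abca3 shared 2.22% of its windows with its neighbour Abca17, and Abca9 shared 0.205% with Abca6. The other 6 genes shared no window with another family gene. Most of each transcript is thus specific to its gene, while reads from the shared stretches remain uncertain.

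Levels differed widely between members. On a scale of CPM per kb of deposited gene length, Abca3 was highest at 46.5 ± 17.2 CPM per kb in knockout and 44.1 ± 7.48 CPM per kb in control libraries (SD, n = 4 each). Abca2 followed at 12.2 ± 2.31 CPM per kb in knockout and 7.71 ± 0.813 CPM per kb in control libraries (SD, n = 4 each). Abca7 stood at 5.04 ± 0.472 CPM per kb in knockout and 3.93 ± 0.306 CPM per kb in control libraries (SD, n = 4 each). Abca3 lay above Abca2, and Abca2 above Abca7, in all 8 libraries. Abca13 stood at 5.34 ± 1.73 CPM per kb in knockout and 0.9 ± 0.412 CPM per kb in control libraries (SD, n = 4 each), and its rank differed between the groups: Abca7 was above Abca13 in 1 of 4 knockout libraries and in 4 of 4 control libraries, and Abca13 was above Abca5 in 4 of 4 knockout libraries and in 0 of 4 control libraries.

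Among the lower members, Abca5 stood at 1.29 ± 0.287 CPM per kb in knockout and 1.52 ± 0.408 CPM per kb in control libraries (SD, n = 4 each), Abca4 at 1.15 ± 0.102 CPM per kb in knockout and 0.643 ± 0.137 CPM per kb in control libraries (SD, n = 4 each) and Abca1 at 0.905 ± 0.203 CPM per kb in knockout and 1.07 ± 0.438 CPM per kb in control libraries (SD, n = 4 each). Abca8a, Abca9 and Abca8b were lowest, between 0.025 and 1.34 CPM per kb over all libraries. The order in this lower part differed between the groups. Abca5 was above Abca4 in 2 of 4 knockout and 4 of 4 control libraries, and Abca4 above Abca1 in 3 of 4 knockout and 0 of 4 control libraries. Abca1 was above Abca8a in 2 of 4 knockout and 4 of 4 control libraries, and Abca9 above Abca8b in 4 of 4 knockout and 2 of 4 control libraries. Abca8a was above Abca9 in 2 of 4 libraries of each group.

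**Figure D1:**
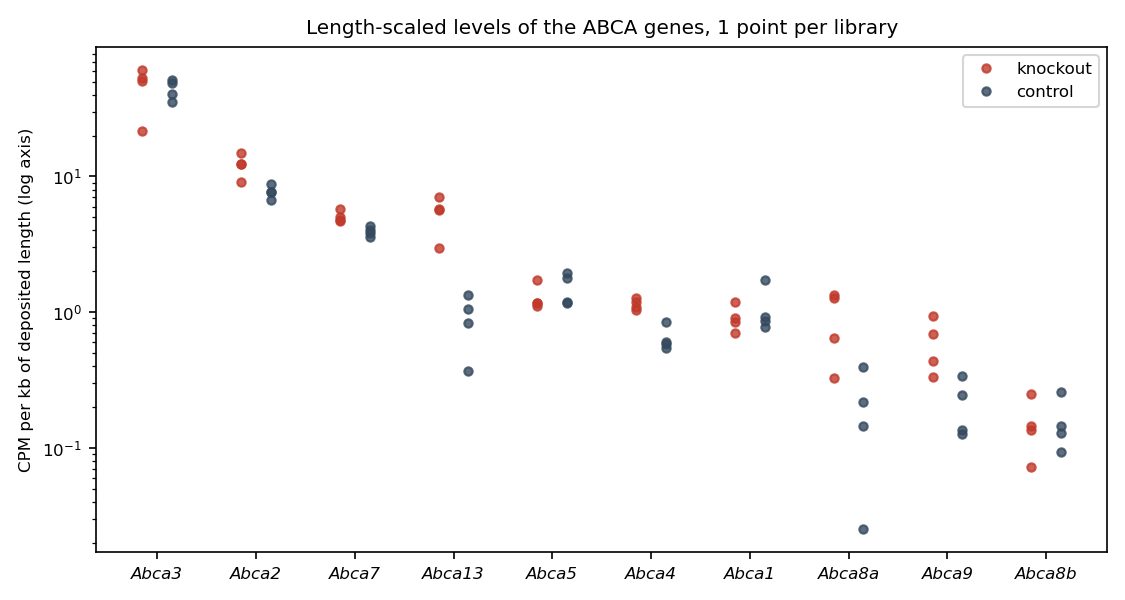
Level of each ABCA gene in CPM per kb of deposited length (log axis), 1 point per library, with knockout libraries left of control libraries. Abca3 is highest in all 8 libraries, and Abca13 lies between 2.95 and 7.09 in knockout and between 0.37 and 1.35 in control libraries.

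Summed per kb, the 16 family genes gave 43.4, 80.1, 91.4 and 81.7 CPM per kb in knockouts 1 to 4, against 57.5, 51.7, 69.9 and 63.1 CPM per kb in controls 1 to 4. Abca3 alone made up 61.1% ± 7.77 of this sum in knockout and 72.5% ± 3.86 in control libraries (SD, n = 4 each). Abca13 made up 7.14% ± 0.42 in knockout and 1.48% ± 0.64 in control libraries, and Abca2 17.04% ± 3.32 in knockout and 12.8% ± 1.70 in control libraries. The share of Abca13 ran from 6.79% to 7.75% in the knockouts, while its own level there ran from 47.2 to 114 CPM. A share moves with every gene in the sum, so these shares do not show which gene changed.

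**Figure D2:**
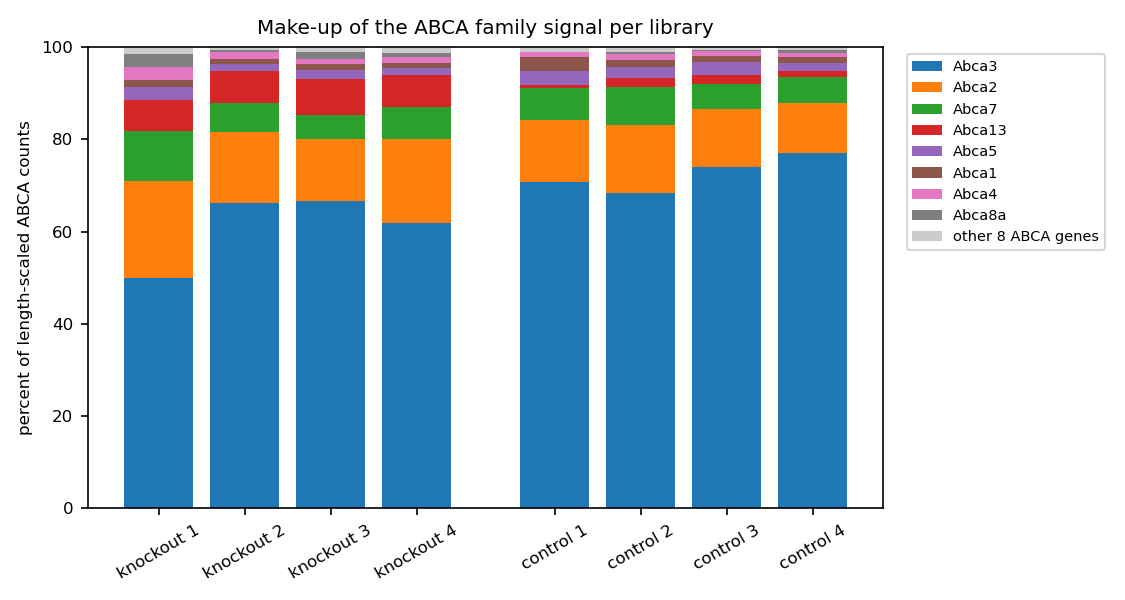
Percent of the summed length-scaled counts of the 16 ABCA genes taken by each gene, 1 bar per library, knockouts at the left. Abca3 takes 49.9% to 66.6% in knockout and 68.3% to 77.1% in control libraries, and the Abca13 segment is taller in every knockout library than in any control library.

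All 10 genes passed the filter on low counts and entered the fit across 15000 genes. Of the 10, 4 passed the threshold as higher in the knockout (Abca2, Abca4, Abca9 and Abca13) and 0 as lower (0 also at an unadjusted p under 0.05 and by DESeq2). Among all genes tested, 12.7% passed in either direction, 6.45% as higher and 6.28% as lower. The groups did not overlap for 4 of the 10 (Abca2, Abca4, Abca7 and Abca13, all higher in the knockout), against 21.7% of all genes in either direction, 11.1% higher and 10.6% lower. The median log2 fold change was 0.51 over the 10 genes and -0.01 over all genes tested. Since the list was made with these differences in view, nothing is read from the counts. The count of 4 was 2 without knockout 2, knockout 3 or control 4, 1 without knockout 4, and 1 without control 1 and knockout 3 together. Abca2 left the count without knockout 2, 3 or 4 or control 4, Abca4 without knockout 2 or 4 or control 4, and Abca9 without knockout 1, 3 or 4 or control 2, 3 or 4. All 3 left it without control 1 and knockout 3.

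**Figure D3:**
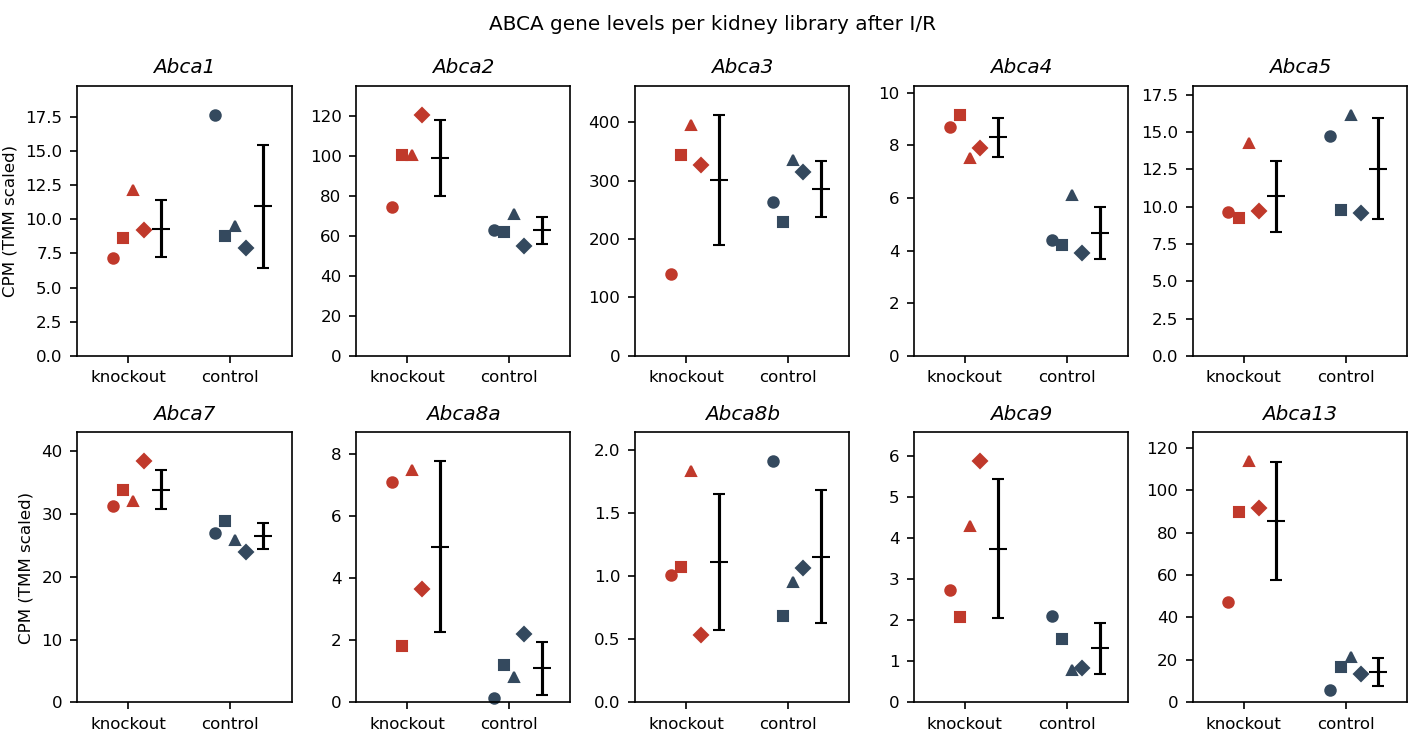
CPM of each ABCA gene in the 4 knockout (red, left) and 4 control libraries (blue, right), with the mean and SD in black; circle, square, triangle and diamond stand for libraries 1 to 4 of each group. The groups are apart for Abca2, Abca4, Abca7 and Abca13, and they overlap for the other genes.

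Abca13, the largest protein of the family, had 47.2, 89.9, 114 and 91.7 CPM in knockouts 1 to 4, against 5.93, 16.8, 21.6 and 13.3 CPM in controls 1 to 4. Every knockout library was above every control library, and control 1 was lowest of all. The means were 85.6 ± 27.7 CPM in knockout and 14.4 ± 6.59 CPM in control libraries (SD, n = 4 each); the log2 fold change was 2.57 (SE 0.38), or 5.94-fold. With 1 library left out it ran from 2.31 to 2.83, and without control 1 and knockout 3 it was 2.15. Its deposited length of 16011 bases lay at percentile 99.8 of the genes tested, and its counts were 1311 to 4024 in knockout and 211 to 768 in control libraries.

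Abca2, an endolysosomal protein of sterol and sphingolipid handling, had 74.5, 101, 100.4 and 120.5 CPM in knockouts 1 to 4, against 62.9, 62.04, 71.1 and 54.9 CPM in controls 1 to 4. The groups did not overlap, although knockout 1 and control 3 were close. The means were 98.99 ± 18.8 CPM in knockout and 62.7 ± 6.62 CPM in control libraries (SD, n = 4 each), with a log2 fold change of 0.66 (SE 0.15). With 1 library left out it ran from 0.55 to 0.77, and without control 1 and knockout 3 it was 0.65.

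Abca4 flips retinal bound to phosphatidylethanolamine in photoreceptors, where its loss causes a macular dystrophy in humans. It had 8.67, 9.15, 7.5 and 7.91 CPM in knockouts 1 to 4, against 4.38, 4.22, 6.12 and 3.92 CPM in controls 1 to 4. Its knockout libraries were tightly grouped, with a coefficient of variation of 8.91% against 21.3% in controls, and all were above the controls. The log2 fold change was 0.83 (SE 0.20). With 1 library left out it ran from 0.76 to 0.99, and without control 1 and knockout 3 it was 0.85. Of 8 listed visual cycle genes, Rdh8, Rpe65, Rlbp1 and Rbp3 had 0 counts in every library.

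Abca9, a cluster gene whose human counterpart is regulated by cholesterol in macrophages, had 2.74, 2.08, 4.29 and 5.87 CPM in knockouts 1 to 4, against 2.11, 1.53, 0.786 and 0.842 CPM in controls 1 to 4. Knockout 2 lay at the level of control 1, so the groups overlapped by this pair, and knockouts 3 and 4 were highest. The means were 3.74 ± 1.69 CPM in knockout and 1.32 ± 0.627 CPM in control libraries (SD, n = 4 each), with a log2 fold change of 1.5 (SE 0.43). With 1 library left out it ran from 1.20 to 1.83, and without control 1 and knockout 3 it was 1.76. Its counts were low, 72 to 198 in knockout and 26 to 75 in control libraries.

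Abca8a, whose human relative ABCA8 exports cholesterol and drugs, had 7.13, 1.82, 7.5 and 3.65 CPM in knockouts 1 to 4, against 0.141, 1.22, 0.814 and 2.2 CPM in controls 1 to 4. Control 1, with 5 counts, was far below the rest, and knockout 2 lay below control 4. The log2 fold change of 2.2 (SE 0.67) was the second highest of the 10 genes, but the spread was wide and the gene was not among the 4. With 1 library left out it ran from 1.83 to 2.79 (it was called without control 4), and without control 1 and knockout 3 it was 1.57. Its neighbour Abca8b had 1.01, 1.07, 1.83 and 0.533 CPM in knockouts 1 to 4, against 1.91, 0.688, 0.955 and 1.07 CPM in controls 1 to 4. The groups lay within the same range, and the log2 fold change was -0.06 (SE 0.46), with its sign turned without knockout 4 (0.18) or control 1 (0.30) and a value of -0.06 without control 1 and knockout 3.

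The 8 fibroblast markers summed to 764, 467, 627 and 541 CPM in knockouts 1 to 4, against 209.5, 456, 198 and 588 CPM in controls 1 to 4. Of the 8, 0 passed (4 at an unadjusted edgeR p under 0.05, 2 by DESeq2) and all had positive log2 fold changes, with a median of 0.77 (edgeR; Dpt had the lowest adjusted p, 0.0519, at 1.47). Controls 1 and 3 were low in these markers and in Abca8a alike. This was not particular to fibroblast markers. Endothelial markers summed to 378, 541, 212 and 566 CPM in controls 1 to 4. Proximal tubule markers summed to 1928, 4520, 2983 and 5669 CPM there. Loop of Henle markers, in contrast, were highest in control 3. Abca9 ran otherwise: among the controls it was highest in control 1, at 2.11 CPM. It stood at 0.842 CPM in control 4, which had the highest fibroblast marker sum of the controls. The part of fibroblasts or of these other cell types in the Abca8a and Abca9 values was not tested. The 9 macrophage markers summed to 212 to 359 CPM in knockout and 182 to 321 CPM in control libraries. Of the 9, 0 passed (1 higher and 2 lower at an unadjusted edgeR p under 0.05, and likewise by DESeq2). Beside the fibroblast and macrophage lists, edgeR called 12.7% of all genes and DESeq2 20.7%.

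Abca7, a phospholipid exporter that promotes phagocytosis and is a risk gene of Alzheimer disease in humans, had 31.3, 33.8, 32.04 and 38.3 CPM in knockouts 1 to 4, against 26.95, 28.9, 25.8 and 24.00 CPM in controls 1 to 4. The groups did not overlap and the spread was the smallest of the 10 genes in controls, with coefficients of variation of 9.36% in knockout and 7.78% in control libraries. The log2 fold change was 0.36 (SE 0.11), and 0.39 without control 1 and knockout 3; the gene was not among the 4.

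Abca1 had 7.16, 8.63, 12.1 and 9.22 CPM in knockouts 1 to 4, against 17.6, 8.76, 9.49 and 7.90 CPM in controls 1 to 4. Apart from control 1, the values ran from 7.16 to 12.1 CPM and the groups overlapped. The log2 fold change was -0.24 (SE 0.27), and without control 1 its sign turned, to 0.09. Without control 1 and knockout 3 it was -0.06. The counts behind it were 199 to 627 per library.

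Abca3, which fills lamellar bodies with phospholipid in alveolar type II cells, had 140.3, 343, 394 and 327 CPM in knockouts 1 to 4, against 263, 229, 335 and 315 CPM in controls 1 to 4. Knockout 1 was lowest by far, while the other 3 knockouts lay in the upper part of the range of all libraries. The log2 fold change was 0.08 (SE 0.27) with all libraries, 0.31 without knockout 1, and below 0 without knockout 3 (-0.08), control 2 (-0.02) or both control 1 and knockout 3 (-0.12). Abca5, a lysosomal protein, had 9.64, 9.21, 14.2 and 9.69 CPM in knockouts 1 to 4, against 14.7, 9.76, 16.1 and 9.59 CPM in controls 1 to 4. Knockout 3, control 1 and control 3 were high, and the log2 fold change was -0.23 (SE 0.23), and -0.32 without control 1 and knockout 3.

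**Figure D4:**
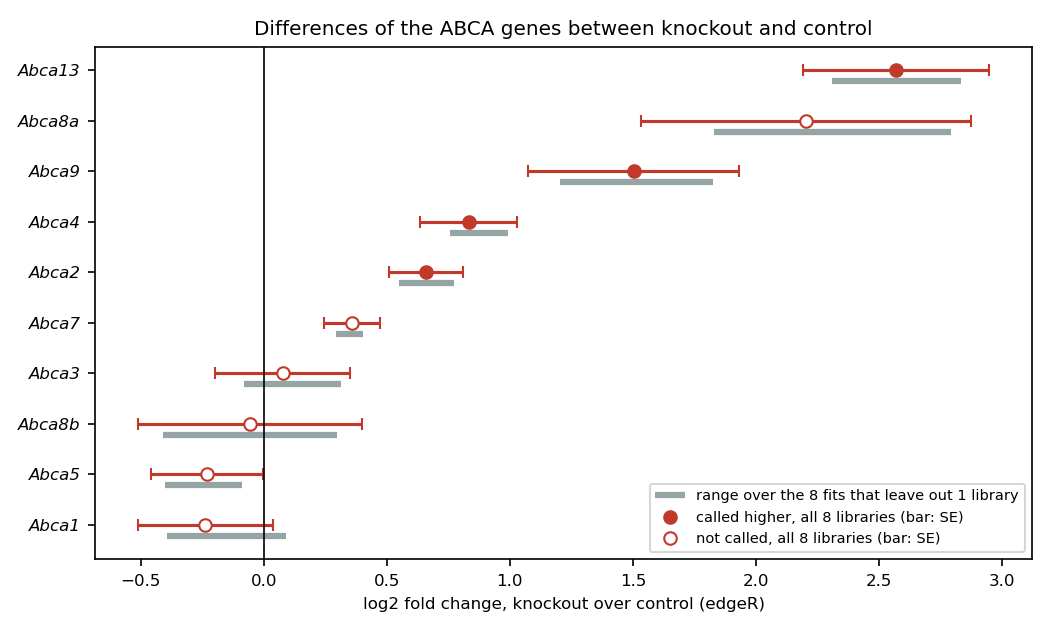
Log2 fold change of each ABCA gene, knockout over control, with its SE (red) and the range over the 8 fits that leave out 1 library (grey); filled circles are the 4 genes counted as called. Abca13 stands at 2.57, and the grey ranges of Abca1, Abca3 and Abca8b cross 0.

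Each of the 3 genes with the highest mean CPM was compared with 12464 other genes by the root mean square difference of log2 CPM, centred on each gene's mean, over the 8 libraries. For Abca13 the closest gene was Slc12a1, the sodium-potassium-chloride cotransporter of the thick ascending limb, at 0.30 against an own spread of Abca13 of 1.45. Slc12a1 had 606, 773, 809 and 875 CPM in knockouts 1 to 4, against 75.4, 197, 167 and 129 CPM in controls 1 to 4. Slc22a26, a member of the organic anion transporter family, followed at 0.38, and Acacb, which makes malonyl-CoA at mitochondria, at 0.45. The 5 loop of Henle markers, Slc12a1 included, summed to 6229.9 to 7272 CPM in knockout and 2192 to 3774 CPM in control libraries. Most of this was Umod, with 5128 to 6020 CPM in knockout and 1977 to 3386 CPM in control libraries. Cldn10 and Cldn16 of that list were not called. The 8 distal nephron and collecting duct markers summed to 2243 to 3017 CPM in knockout and 568 to 1499 CPM in control libraries. The part of either list in the Abca13 value was not tested. In Slc12a1, Slc22a26 and Acacb, control 1 was lowest and the groups were apart, as in Abca13.

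For Abca2 the closest genes were Dock8, an activator of Cdc42 in immune cells, at 0.07, Iqsec1, an activator of Arf GTPases, at 0.09 and Zfp334 at 0.09, against an own spread of 0.38. For Abca3 they were Greb1l, a gene of kidney development, at 0.13, the non-coding RNA gene Snhg11 at 0.13 and Proser1 at 0.14, against an own spread of 0.44. Knockout 1 was lowest in each of these as in Abca3: Greb1l had 5.72, 10.8, 15.1 and 10.9 CPM in knockouts 1 to 4, against 8.94, 7.29, 10.8 and 11.2 CPM in controls 1 to 4. The genes were picked for this likeness, out of many, so it is a description.

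**Figure D5:**
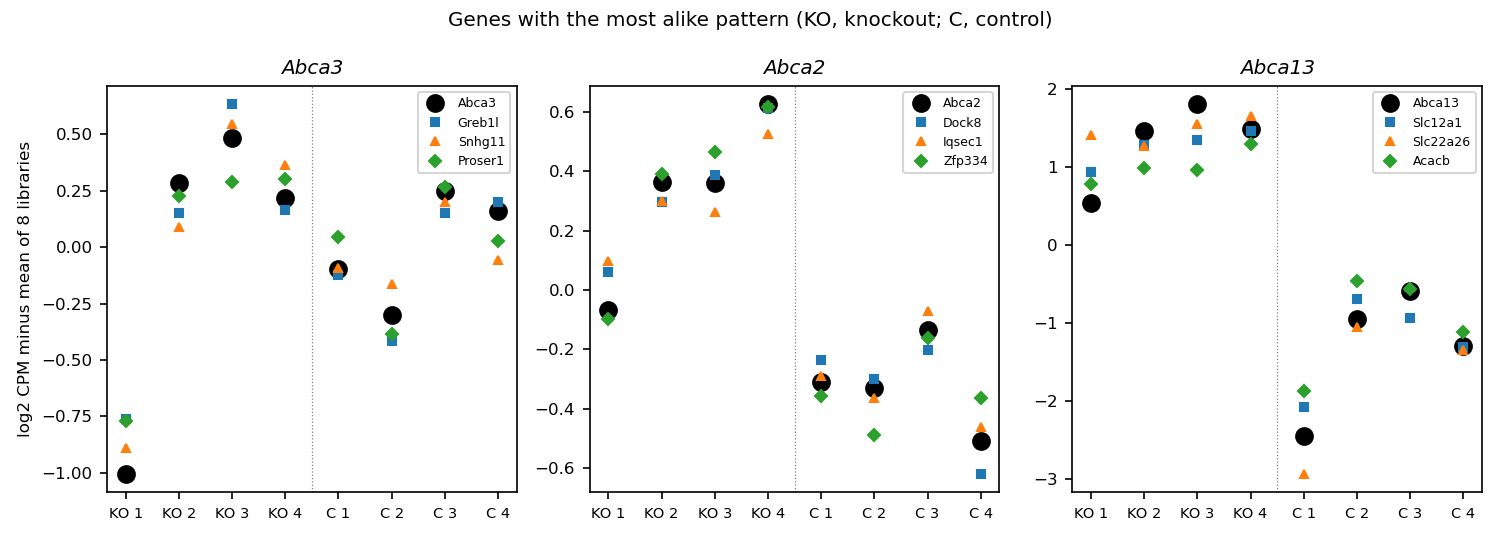
Log2 CPM minus the gene's mean over 8 libraries for Abca3, Abca2 and Abca13 (black) and the 3 genes most like each, with knockout libraries (KO) left of control libraries (C). Abca13 and Slc12a1 lie apart between the groups and are lowest in control 1, whereas Abca3 and its matches are lowest in knockout 1.

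Genes of the other ABC families were listed by family, with earlier results of these data known. Of 37 such genes 31 passed the filter on low counts, of which 1 rose and 1 fell, 6.45% against 12.7% of all genes. Abcb10, a mitochondrial transporter of the heme pathway, rose to 44.9 ± 4.59 CPM in knockout, against 33.1 ± 3.47 CPM in control libraries (SD, n = 4 each). The Abcb10 difference was 0.44 on the log2 scale with SE 0.12 (edgeR adjusted p = 0.0389). Cftr, the chloride channel of this superfamily, fell to 7.13 ± 2.13 CPM in knockout, against 17.6 ± 7.48 CPM in control libraries (SD, n = 4 each). The Cftr difference was -1.30 on the log2 scale with SE 0.32 (edgeR adjusted p = 0.0280). The Abcb10 call ended when any of 6 single libraries was dropped (knockout 2, 3 or 4 or control 1, 3 or 4) and the Cftr call for any of 5 (knockout 1, 2 or 4 or control 1 or 3). Without control 1 and knockout 3 together, Abcb10 was not called (0.38, edgeR adjusted p = 0.134) and Cftr was (-1.21, edgeR adjusted p = 0.0442). By family, 1 of 10 ABCB, 1 of 10 ABCC, 0 of 4 ABCD, 0 of 4 ABCE and ABCF and 0 of 3 ABCG genes passed. At an unadjusted edgeR p under 0.05, Abce1 (log2 fold change -0.49) and Abcf2 (-0.31) were lower among the ABCE and ABCF genes, and 0 ABCG genes passed. By DESeq2 the other ABC genes called numbered 3 higher and 4 lower of 31, where DESeq2 called 20.7% of all genes. Abcg1, which passes cholesterol to HDL after Abca1, did not pass (log2 fold change 0.25, SE 0.22; edgeR adjusted p = 0.486). Abca17, the 1 unlisted ABCA gene that could be measured, had 2 to 33 counts and did not pass (-0.24 on the log2 scale, SE 0.73, edgeR adjusted p = 0.865).

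Genes that work with Abca1 were then compared. Of the 4 LXR and RXR receptor genes 0 passed (0 at an unadjusted edgeR p under 0.05 and 0 by DESeq2), with log2 fold changes of -0.08 to -0.03. Of 10 measured LXR targets 3 rose and 0 fell, where 6.45% of all genes tested were higher and 6.28% lower. The count depended on the rule: 6 were higher and 0 lower at an unadjusted edgeR p under 0.05, and likewise by DESeq2. By these rules 4368 of 15000 genes and 20.7% of all genes passed. The median log2 fold change of the targets was 0.47, against -0.01 over all genes. Scd2, a fatty acid desaturase, had 385 ± 46.4 CPM in knockout and 139.8 ± 40.9 CPM in control libraries (SD, n = 4 each). The Scd2 difference was 1.46 on the log2 scale with SE 0.20 (edgeR adjusted p = 0.00248). Its relative Scd1 had 201 ± 43.00 CPM in knockout and 66.6 ± 42.2 CPM in control libraries (SD, n = 4 each). The Scd1 difference was 1.6 on the log2 scale with SE 0.47 (edgeR adjusted p = 0.0495). Apoe, the apolipoprotein that accepts cholesterol from macrophages, had 417 ± 162 CPM in knockout and 221 ± 40.7 CPM in control libraries (SD, n = 4 each). The Apoe difference was 0.91 on the log2 scale with SE 0.25 (edgeR adjusted p = 0.0415). Abca1 and Abcg1 did not pass. Of 3 measured FoxO factor genes 0 passed (2 higher at an unadjusted edgeR p under 0.05 and 2 by DESeq2); Foxo1 had 0.29 (SE 0.09, edgeR adjusted p = 0.0647).

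Of 12 genes of cholesterol export and storage 3 rose and 0 fell, beside the same 6.45% and 6.28% of all genes, with a median of 0.10. Apoe is counted in this list too. Cyp27a1, which makes an oxysterol that binds LXR, had 25.9 ± 3.61 CPM in knockout and 16.7 ± 3.68 CPM in control libraries (SD, n = 4 each). The Cyp27a1 difference was 0.64 on the log2 scale with SE 0.18 (edgeR adjusted p = 0.0447). Scd2 kept its call whichever library was dropped. Scd1 lost its call for any of 6 single libraries (each knockout, control 3 and control 4), Apoe in 5 (knockout 1 or 2, control 1, 3 or 4) and Cyp27a1 in 5 (knockout 1, 2 or 4, control 1 or 3). Without control 1 and knockout 3 together, Apoe lost its call (1.03, edgeR adjusted p = 0.0596), and Scd1, Scd2 and Cyp27a1 kept theirs.

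Genes tied to Abca3 and Abca4 in other organs were few in the kidney. Of 8 lamellar body and surfactant genes 3 were measured: Napsa, a protease also abundant in proximal tubule, rose to 2591 ± 574 CPM in knockout, against 1026 ± 494 CPM in control libraries (SD, n = 4 each). The Napsa difference was 1.34 on the log2 scale with SE 0.38 (edgeR adjusted p = 0.0459). Slc34a2, a phosphate transporter, fell to 23.8 ± 3.61 CPM in knockout, against 83.98 ± 30.3 CPM in control libraries (SD, n = 4 each). The Slc34a2 difference was -1.82 on the log2 scale with SE 0.25 (edgeR adjusted p = 0.00241). Lpcat1 did not pass (log2 fold change 0.22). Of the surfactant protein genes, none of which passed the filter on low counts, Sftpa1 had no count and Sftpc 2 counts in all. Sftpb averaged 0.0238 ± 0.0291 CPM in knockout and 0.16 ± 0.139 CPM in control libraries (SD, n = 4 each). Sftpd, a collectin of innate defence, had 2, 4, 8 and 0 counts in knockouts 1 to 4, against 46, 33, 32 and 6 counts in controls 1 to 4. Its groups overlapped, and it was not tested. Napsa lost its call without any 1 knockout, control 3 or control 4. Of 3 measured visual cycle genes 1 rose: Lrat, which esterifies retinol, had 4.19 ± 0.678 CPM in knockout and 0.922 ± 0.203 CPM in control libraries (SD, n = 4 each). The Lrat difference was 2.18 on the log2 scale with SE 0.27 (edgeR adjusted p = 0.00158). The call was kept whichever library was dropped. Rdh12 and Rdh5 did not pass, at -1.06 and 0.43. Beside the counts of these 2 lists, 6.45% of all genes were higher and 6.28% lower.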

How the data were processed

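RNA-seq counts of 8 mouse kidney libraries were used. The authors deposited 1 table of whole-number counts per gene, with no normalization and 1 column per library, and a length in bases per gene. Tools in the submitters' processing notes are HISAT2 2.2.1, Trim Galore 0.6.2, Salmon 1.10.2 and FastQC, with build mm39; which tool counted, and with what annotation, is not stated there. Among counts of 1 to 20, 68.7% to 70.9% per library were even, against 49.5% to 50.4% of counts over 100; the cause was not tested. Depth per library was 29044405 to 35530421 counts. Genes were taken by symbol, and the identifier column was not used. The library kit does not mark strand, so overlapping antisense genes cannot be told apart.

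edgeR 4.0.16 (R 4.3.3) was run with filterByExpr (minimum count 10), TMM and a quasi-likelihood test of knockout against control over 8 libraries with no covariate, with Benjamini-Hochberg adjustment over 15000 genes and a threshold of 0.05. Levels are CPM with TMM factors, as mean ± SD; log2 CPM used a prior count of 2. The test was run on simulated counts, drawn with the average spread of genes at each level. These held no shift in cell types and no library set apart, so they do not check the calls for either. Members, gene lists and tests were chosen with earlier results of these data known. The text names each member, up to 4 called genes per list by smallest p, and Foxo1. It also names the 3 genes most alike to each of the 3 members with the highest mean CPM. Named after their values were seen were Dpt, Lyz2, Foxj1, Umod, Cldn10, Cldn16, Sftpc, Sftpd, Abce1, Abcf2, Scgb1a1, Scgb3a2, Abcg1 and Abca17. So were Lpcat1, Rdh5, Rdh12, Sftpa1, Sftpb and the visual cycle genes at 0. Some genes counted in the lists are not reported here by name. Alternatives were DESeq2 1.42.0, its size factors, no filter, a length offset (lowess, span 0.5), a replicate block, and leaving out libraries.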

Additional observations from a re-analysis of the deposited data

Results flagged for a closer look

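In 2 of the 20 groups of 4 values (10 genes in 2 groups), 1 library lay far from the other 3 by Dixon's ratio of gap to range; chance alone flags about 1 in 20 groups. Abca5 stood at 14.2 CPM in knockout 3, against 9.21 to 9.69 CPM in the other knockouts (ratio 0.904). Abca1 stood at 17.6 CPM in control 1, against 7.9 to 9.49 CPM in the other controls (ratio 0.837). Control 1 also had the lowest Abca13 and Abca8a of all libraries and the highest sum of neutrophil markers, 162 CPM, while controls 2 to 4 had 26.3 to 49.5 CPM. Knockout 3 and control 1 are also the 2 libraries with the lowest Lyz2, 13 and 81 counts, against 844 to 1610 in the other 6. The part of these values in the Abca5 and Abca1 values was not tested.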

How the results depend on the processing

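Over 14 alternatives for each of the 10 ABCA genes, 110 of 140 values kept their direction and their side of the threshold, 19 lost the call, 4 gained it and 7 changed sign. The log2 fold change of Abca13 ran from 2.15 to 2.83. The sign changes were those of Abca1 without control 1 (0.0904; -0.39 to 0.0904 over single libraries left out), of Abca3 with the replicate block (-0.0030), without knockout 3 (-0.0791), without control 2 (-0.02) and without control 1 and knockout 3 together (-0.12; -0.0791 to 0.31 over single libraries), and of Abca8b without knockout 4 (0.18) and control 1 (0.30; -0.41 to 0.30). ABCA genes called higher numbered 4. DESeq2 gave 6 (Abca7 and Abca8a added), no filter 5, the length offset 4, and leaving out 1 library 1 to 4. The share of all genes called moved as well, from 12.7% to 20.7% by DESeq2, 9.23% with no filter and 17.3% with the length offset. Leaving out 1 library gave 5.98% to 13.1%. Leaving out control 1 and knockout 3 together, chosen after seeing that these 2 libraries had the lowest Lyz2 counts, gave 1 (Abca13). ABCA genes called lower numbered 0 in every alternative.

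No label states that the libraries were paired. Libraries with the same replicate number in their titles had correlations across genes of -0.20, 0.04, 0.15 and -0.16 in their deviations from the group means. The column headings of the counts number the knockouts otherwise. They match knockout 1 to control 2 (correlation 0.35) and knockout 2 to control 3 (0.17), and a block by these headings was not tested. With the replicate block 447 genes were called higher and 418 lower, 1 ABCA gene higher (Abca13), 0 other ABC genes in either direction, and 2 pathway genes higher; the cause was not tested.

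Of all genes, 967 were higher and 942 lower; DESeq2 called 1605 and 1504, and leaving out 1 library gave 457 to 1001 and 450 to 983. Without control 1 and knockout 3 the counts were 549 and 496. Of the called genes 50.7% were higher, against 46.6% to 52.5% in the alternatives. Of other ABC genes, 1 was higher and 1 lower. DESeq2 gave 3 higher and 4 lower, the length offset 1 higher and 4 lower, no filter 0 higher, leaving out 1 library 0 to 2 of each, and leaving out control 1 and knockout 3 gave 0 higher and 2 lower. Of the 30 measured pathway genes outside the ABC families, 7 were higher and 1 lower. Leaving out 1 library gave 2 to 8 higher and 1 to 2 lower, and no filter gave 2 lower. The cause of these moves was not tested. The fits that leave libraries out also hold fewer libraries. Of the other named genes, 101 of 154 values kept direction and side, 52 lost the call and 1 gained it. Depth limits Abca8a, Abca8b and Abca9, with 5 to 266 counts per library.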
